A study of Mus musculus with 12 samples.

Results

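The 9 genes described here, Pf4, Ppbp, Itga2b, Gp9, Gp1bb, Gp5, Gp6, Treml1 and Vwf, are expressed by megakaryocytes and passed on to platelets as protein and RNA. They were chosen by gene symbol, and all 9 had a row among the 23284 gene symbols of the deposited count tables. RNA was sequenced from the spleen and the axillary lymph node of mice at 30 weeks of age on normal laboratory diet. All mice were deficient in apoE, a ligand for the uptake of remnant lipoproteins, and in mouse apoA-I, the chief protein of HDL particles. The DKO group carried only these 2 deficiencies, and the DKO/hA-I group in addition overexpressed human apoA-I. Each of the 4 groups, spleen DKO, spleen DKO/hA-I, lymph node DKO and lymph node DKO/hA-I, had 3 libraries. There was no wild type group, and the sources used here do not say what drives the human transgene.

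Megakaryocytes are the large, polyploid cells that shed platelets. In mice they lie in the bone marrow and also in the red pulp of the spleen, where blood cells continue to form in adult life, whereas lymph nodes are not a usual site of platelet formation. The products described here are chemokines, surface receptors and an adhesive plasma protein. Pf4 and Ppbp encode chemokines (CXCL4 and the CXCL7 precursor) that are stored in platelet alpha granules. Itga2b encodes the alpha chain of the fibrinogen receptor, integrin alpha-IIb beta-3, and is also switched on in early blood progenitors. Gp9, Gp1bb and Gp5 encode parts of the GPIb-IX-V complex, which binds von Willebrand factor, and Gp6 encodes the collagen receptor glycoprotein VI. Treml1 encodes a receptor held in alpha granules, and Vwf encodes von Willebrand factor, which endothelial cells make as well as megakaryocytes. Pf4 can also be expressed by macrophages.

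Total counts ran from 8966001 to 11237680 in spleen and from 5911835 to 11950825 in lymph node. In the tissue check, all 7 spleen markers were higher in spleen, 5 of 6 lymph node markers were lower there, and the spleen transcription factor genes Nkx2-5 and Tlx1 had no count in any lymph node. The processed pseudogene Rpl31-ps12 had opposite genotype differences in the tissues. Its summed counts were 5 for spleen DKO, 2162 for spleen DKO/hA-I, 2094 for lymph node DKO and 3 for lymph node DKO/hA-I. Genotype directions below follow the labels. Had the labels of one tissue been exchanged, its directions would be the opposite, and the comparisons of tissues within a genotype and the interactions would set other groups together and change as well. In lymph node the DKO animals also have a middle code number of their own, so genotype and whatever that number marks cannot be told apart there. Animal codes differ between the tissues, so spleen and lymph node were compared without pairing.

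The promoters of 4 members are shown because their counts part ways in the lymph nodes, where Pf4 and Itga2b were well detected, as was Vwf, while Gp9 and Gp5 were close to 0. Each sequence is the 250 bases before the RefSeq start, and the promoter set used here held an entry for 8 of the 9 members, all but Vwf. Capitals mark GATAA or its reverse complement TTATC, the core letters that GATA factors bind, and GGAAG or its reverse complement CTTCC, core letters of ETS factor sites. The 2 motifs share no position in these sequences.
Pf4, GRCm38.p6 chr5:90772185-90772434, plus strand: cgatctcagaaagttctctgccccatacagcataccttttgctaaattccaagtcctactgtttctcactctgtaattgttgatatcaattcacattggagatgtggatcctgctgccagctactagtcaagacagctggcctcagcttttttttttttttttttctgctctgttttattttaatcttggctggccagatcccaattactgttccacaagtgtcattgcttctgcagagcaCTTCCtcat
Itga2b, GRCm38.p6 chr11:102469884-102470133, minus strand: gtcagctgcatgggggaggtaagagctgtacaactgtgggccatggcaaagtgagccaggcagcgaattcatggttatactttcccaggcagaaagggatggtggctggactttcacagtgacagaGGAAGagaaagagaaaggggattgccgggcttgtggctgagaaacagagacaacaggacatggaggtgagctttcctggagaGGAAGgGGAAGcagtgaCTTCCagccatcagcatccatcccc
Gp9, GRCm38.p6 chr6:87777820-87778069, plus strand: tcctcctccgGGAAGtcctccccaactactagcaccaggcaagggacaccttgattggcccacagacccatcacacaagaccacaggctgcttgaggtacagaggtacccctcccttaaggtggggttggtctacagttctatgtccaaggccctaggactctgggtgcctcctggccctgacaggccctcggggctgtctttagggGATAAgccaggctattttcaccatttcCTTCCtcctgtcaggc
Gp5, GRCm38.p6 chr16:30310782-30311031, minus strand: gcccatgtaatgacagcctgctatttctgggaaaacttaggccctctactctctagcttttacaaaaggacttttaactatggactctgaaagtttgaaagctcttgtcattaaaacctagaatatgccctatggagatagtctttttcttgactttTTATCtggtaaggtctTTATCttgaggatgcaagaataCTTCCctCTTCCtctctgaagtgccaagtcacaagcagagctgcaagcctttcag

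The GATA letters occurred in 3 of the 8 promoters (Gp9, Gp5 and Gp6), against 22.6% of the 32851 RefSeq promoters of the same 250 bases. Ppbp, Gp1bb and Treml1 lacked them, as did Pf4 and Itga2b, although these first 3 genes also had few lymph node counts. The 4 promoters printed above thus do not stand for the whole set. The ETS letters occurred in 7 of the 8, all but Gp6, against 64.1% of all promoters. Both occurred in Gp9 and Gp5, against 13.2%. Itga2b had 4 ETS matches, of which 3 began 42, 36 and 25 bases before the RefSeq start. That start lies inside the gene as GENCODE gives it, so 239 of the 250 bases shown for Itga2b are within the GENCODE gene and not upstream of it. In Pf4 the only match began 9 bases before the start, and in Gp5 the 2 GATA matches began 93 and 77 bases before it. These matches are a description of the letters in a short window and not of factor binding.

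Spleen was set against lymph node to ask how the level of each gene differed between the lymphoid tissues. Levels are given in CPM, the count relative to the library total adjusted by TMM factors, and errors of CPM are SDs. Most of these genes were expressed far more in spleen. Over both genotypes, 8 of the 9 members were higher in spleen by edgeR's quasi-likelihood test at an adjusted p under 0.05, against 17.9% of the 14608 genes tested. For 7 of the 9 the lowest spleen lay above the highest lymph node, against 9.1% of genes. Only Vwf was not called. Of the 9, 6 (Ppbp, Gp9, Gp1bb, Gp5, Gp6 and Treml1) passed the filter on low counts through the spleen alone, so for them a call in this direction was built in. In bulk tissue, fewer cells of a type and less RNA per cell cannot be told apart.

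**Figure D1:**
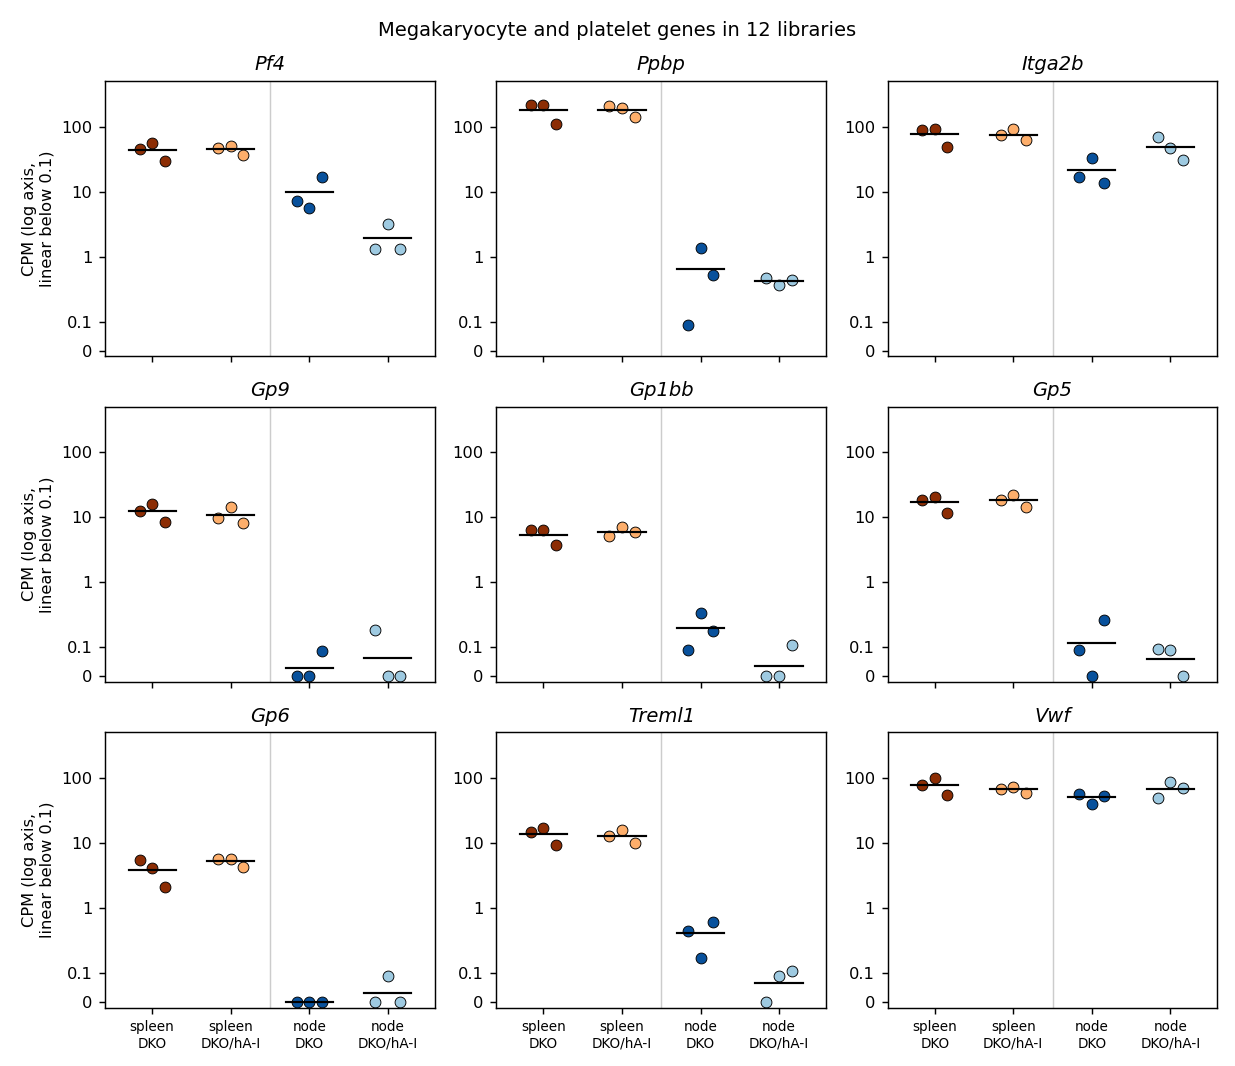
Expression of the 9 members in the 12 libraries, in CPM on a log axis that is linear below 0.1. Points are libraries and lines are means of 3. Ppbp, Gp9, Gp1bb, Gp5, Gp6 and Treml1 lie far lower in the lymph nodes than in the spleens, Pf4 and Itga2b lie between, and Vwf lies at similar heights in both tissues.

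Ppbp (ENSMUSG00000029372, chromosome 5, 90768518 to 90770063, plus strand) was the most abundant member in spleen, also per exon length. It had 216, 216 and 110 CPM in DKO spleens and 210, 193 and 140 CPM in DKO/hA-I spleens. In lymph nodes it had 1, 8 and 6 counts in the DKO libraries, and 5, 4 and 4 in the DKO/hA-I libraries. The tissues did not overlap, and the summed counts of 11275 in spleen and 28 in lymph node give a ratio of 387 once scaled to total counts (95% interval 268 to 583). Intervals of count ratios cover counting error only. The fitted log2 fold change was 8.54 ± 0.33 (SE, edgeR adjusted p = 1.75e-09).

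The genes of the von Willebrand factor receptor complex showed the same contrast. Gp5 (ENSMUSG00000047953, chromosome 16, 30307685 to 30310779, minus strand) had 169, 213 and 118 counts in DKO spleens and 205, 228 and 169 counts in DKO/hA-I spleens. In lymph nodes it had 1, 0 and 3 counts in the DKO libraries, and 1, 1 and 0 in the DKO/hA-I libraries. Every spleen thus stood far above every node, with a ratio of 177 (95% interval 80.9 to 483; log2 fold change 7.35 ± 0.34, edgeR adjusted p = 7.42e-09). Gp9 (ENSMUSG00000030054, chromosome 6, 87778072 to 87779768, plus strand) had 84 to 164 counts per spleen and 0 to 2 per lymph node. Its summed counts of 714 and 3 give a ratio of 229 (95% interval 78 to 1113). Gp1bb (ENSMUSG00000050761, chromosome 16, 18620317 to 18622403, minus strand) had 37 to 74 counts per spleen and 0 to 2 per lymph node, a ratio of 57.4 (95% interval 26.1 to 157).

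Gp1bb is the one member that shares exons on its own strand with a gene of the tables, Sept5, which encodes a septin of the cytoskeleton. The sources used here do not say how reads were divided between them, so the Gp1bb level is uncertain. Sept5 had 339 counts in spleen and 269 in lymph node and did not pass between tissues (log2 fold change 0.38 ± 0.27, edgeR adjusted p = 0.293), unlike Gp1bb. Gp1ba, the alpha chain of the same complex, stood at 20.9 ± 7.13 CPM in DKO and 21.7 ± 3.38 CPM in DKO/hA-I spleens, and at 2.4 ± 0.874 CPM in DKO and 2.69 ± 0.431 CPM in DKO/hA-I lymph nodes (SD, n = 3 each). It was higher in spleen with a log2 fold change of 3.03 ± 0.21 (edgeR adjusted p = 2.56e-07).

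Gp6 (ENSMUSG00000078810, chromosome 7, 4363965 to 4397744, minus strand) was the least abundant member in spleen, also per exon length, with 21 to 65 counts per spleen. It had 0 counts in the 3 DKO nodes and 1 count in the 3 DKO/hA-I nodes together. In DKO, spleen was at least 36.6-fold higher, taking a floor of 3 counts over the 3 nodes, and over both genotypes the ratio was 275 (95% interval 49 to 10907). Treml1 (ENSMUSG00000023993, chromosome 17, 48359916 to 48367176, plus strand) had 93 to 173 counts per spleen. Its lymph node counts were 5, 1 and 7 in DKO and 0, 1 and 1 in DKO/hA-I, and the ratio of spleen to lymph node was 52.9 (95% interval 31.9 to 95).

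Pf4 and Itga2b had smaller tissue differences. Pf4 (ENSMUSG00000029373, chromosome 5, 90772435 to 90773383, plus strand) lies next to Ppbp on the same strand. It had 44.7, 56.2 and 29.4 CPM in DKO spleens and 46.7, 50.1 and 36.3 CPM in DKO/hA-I spleens. In lymph nodes it had 7.2, 5.57 and 17 CPM in DKO and 1.3, 3.16 and 1.29 CPM in DKO/hA-I. The lowest spleen lay above the highest node, and the log2 fold change was 3.30 ± 0.30 (edgeR adjusted p = 2.31e-06). Itga2b (ENSMUSG00000034664, chromosome 11, 102453297 to 102470122, minus strand) had 88.1, 92.4 and 49.1 CPM in DKO spleens and 73.6, 90.2 and 62.1 CPM in DKO/hA-I spleens. Its lymph node values were 16.9, 32.7 and 13.7 CPM in DKO and 69.1, 46.6 and 30.1 CPM in DKO/hA-I. The tissues overlapped through DKO/hA-I node replicate 1, and the log2 fold change was 1.26 ± 0.25 (edgeR adjusted p = 0.00159).

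Vwf (ENSMUSG00000001930, chromosome 6, 125546774 to 125686679, plus strand) stood at 77.3, 99.5 and 54.2 CPM in DKO spleens and 66.9, 73.4 and 58.4 CPM in DKO/hA-I spleens. In lymph nodes it stood at 57.3, 39.6 and 53.1 CPM in DKO and 49.4, 85.5 and 68.8 CPM in DKO/hA-I. The tissues overlapped, and the log2 fold change of 0.29 ± 0.16 did not pass (edgeR adjusted p = 0.196). The 12 blood endothelium markers, genes of the other main source of Vwf, summed to 926 to 969 CPM in DKO spleens, 926 to 1097 CPM in DKO/hA-I spleens, 871 to 1108 CPM in DKO nodes, while DKO/hA-I nodes had 1175 to 1226 CPM. Of these, 3 were higher and 7 lower in spleen, where 17.9% of the 14608 genes tested were higher and 2563 genes were lower. Their part in the level of Vwf was not tested.

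Tissues were also compared within each labelled genotype. In DKO, 8 of 9 members were higher in spleen, against 11.5% of genes, and in DKO/hA-I 7 were, against 14% of genes. The gene that separated the counts was Itga2b, at 1.89 ± 0.36 on the log2 scale in DKO (edgeR adjusted p = 0.00211) and 0.63 ± 0.34 in DKO/hA-I (adjusted p = 0.216). For Pf4 the step was 2.09 ± 0.38 in DKO and 4.50 ± 0.46 in DKO/hA-I (adjusted p = 0.00151 and 1.26e-05). Ratios of counts scaled to library totals, spleen over lymph node, were 4.08 for Pf4 in DKO (95% interval 3.6 to 4.64) and 22.8 in DKO/hA-I (17.6 to 30), whereas Itga2b had 4.08 in DKO (3.71 to 4.49) and 1.53 in DKO/hA-I (1.44 to 1.63). These intervals cover counting error only and leave out the spread between libraries. In edgeR's test of whether the tissue step differed between genotypes, Itga2b did not pass (adjusted p = 0.204), and Pf4 passed near the threshold (adjusted p = 0.0438).

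**Figure D2:**
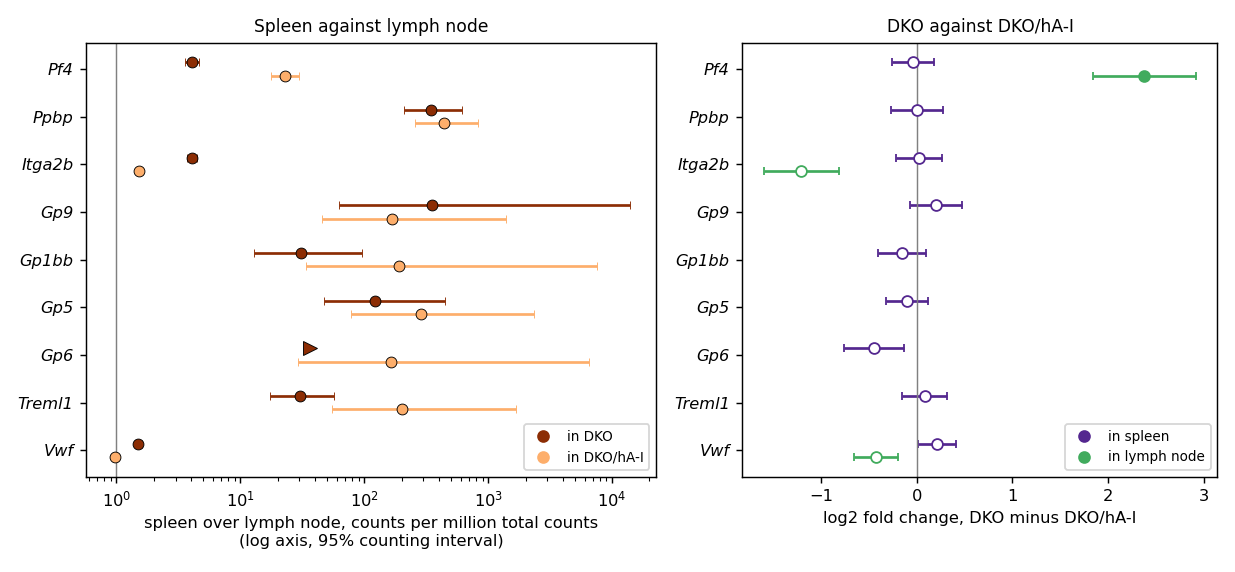
Left, the ratio of counts, scaled to library totals, in spleen over those in lymph node for each member and genotype, on a log axis with 95% counting intervals; the triangle is the lower bound for Gp6 in DKO, with 0 lymph node counts. Right, fitted log2 fold changes of DKO minus DKO/hA-I with standard errors, for the 9 members tested in spleen and the 3 tested in lymph node, where the filled symbol is Pf4, the only member called.

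The order of the members also differed between tissues. Divided by exon length, mean levels in spleen were 167 CPM per kb for Ppbp, 62.7 for Pf4, 22.1 for Itga2b, 13.1 for Gp9, 10.6 for Treml1, 8.03 for Gp5, 7.32 for Vwf, 2.74 for Gp1bb and 0.772 for Gp6. The ranges over the 6 spleens of Ppbp (102 to 200) and Pf4 (42 to 80.3) were clear of each other and of all others. Itga2b overlapped with Gp9, Gp9 with Treml1, Treml1 with Gp5 and Gp5 with Vwf, while Gp1bb and Gp6 lay clear below and of each other. In lymph node the leaders were Itga2b at 10.1, Pf4 at 8.47 and Vwf at 6.03 CPM per kb, 3 genes whose ranges overlapped, and Ppbp was at 0.496. Ppbp was thus the leader of the spleen and had few counts in the nodes.

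The platelet genes moved together across the 6 spleens. DKO replicate 3 held the lowest spleen value of 8 of the 9 members, with Gp9 lowest in DKO/hA-I replicate 3 at 8.02 CPM. The highest value of a member was 1.82 to 2.73 times its lowest. Over the 36 pairs of members, Pearson's r of log2 CPM across these 6 libraries, which share their preparation, ran from 0.44 to 0.98 with a median of 0.87. A low library such as DKO replicate 3 can raise all these values. No r of other gene pairs was set beside them, so they are not shown to be particular to the members.

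In spleen the comparison of DKO with DKO/hA-I asked how these genes differed without and with human apoA-I, and 0 of 9 members were called by edgeR, against 0.00714% of the 14009 genes tested, which is 1 gene. With edgeR, 0 members had an unadjusted p under 0.05, the lowest being 0.182, and DESeq2 and limma voom each called 0. All 9 members overlapped between the genotypes, against 10.6% of genes whose groups did not. The log2 fold changes had a median of 0.00, against 0.01 over all genes tested. Pf4 averaged 43.4 ± 13.4 CPM in DKO and 44.4 ± 7.2 CPM in DKO/hA-I spleens (SD, n = 3 each), and Ppbp averaged 181 ± 61.2 CPM in DKO and 181 ± 36.4 CPM in DKO/hA-I. The member farthest from 0 was Gp6, at 3.87 ± 1.67 CPM in DKO, against 5.24 ± 0.807 CPM with human apoA-I (log2 fold change -0.45 ± 0.31, edgeR adjusted p = 0.929). Erythroid markers, of the lineage nearest to megakaryocytes, summed to 7041, 38826 and 18882 CPM in DKO spleens and 10392 to 17871 CPM in DKO/hA-I spleens, and over the 6 spleens their highest value was farther above the lowest than that of any member.

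In lymph node, 3 members had enough counts to be tested (Pf4, Itga2b and Vwf), and 1 was called, against 6.87% of the 14012 genes tested. Pf4 was higher in DKO nodes, with 80, 33 and 193 counts in the DKO libraries and 14, 35 and 12 in those of DKO/hA-I. Scaled to library size, the lowest DKO node, replicate 2 at 5.57 CPM, lay above the highest DKO/hA-I node, replicate 2 at 3.16 CPM. Mean levels were 9.94 ± 6.21 CPM in DKO and 1.92 ± 1.08 CPM in DKO/hA-I (SD, n = 3 each), and the log2 fold change was 2.38 ± 0.54 (edgeR adjusted p = 0.0424). The authors' deposited table gave Pf4 a q-value of 0.00034 in lymph node.

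The call stood close to the threshold. It was lost without DKO replicate 1 (edgeR adjusted p = 0.07), DKO replicate 3 (0.12, with a log2 fold change of 1.72) or any of DKO/hA-I replicates 1, 2 and 3 (0.134, 0.0799 and 0.143), and it held without DKO replicate 2 (0.0155). With limma voom the adjusted p was 0.0559, with DESeq2 0.000297 and in an edgeR fit of all 12 libraries 0.00453.

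Itga2b went the other way. It averaged 21.1 ± 10.2 CPM in DKO and 48.6 ± 19.6 CPM in DKO/hA-I nodes (SD, n = 3 each), with a log2 fold change of -1.21 ± 0.39 that did not pass (edgeR adjusted p = 0.109). The groups overlapped because DKO replicate 2, at 32.7 CPM, lay above DKO/hA-I replicate 3, at 30.1 CPM. It passed with DESeq2 (adjusted p = 0.0222), in a fit of all 12 libraries (edgeR adjusted p = 0.036) and without DKO replicate 2 (edgeR adjusted p = 0.0346), and the authors' deposited table gave a q-value of 0.0174. Vwf averaged 50 ± 9.24 CPM in DKO and 67.9 ± 18.1 CPM in DKO/hA-I nodes and did not pass (log2 fold change -0.43 ± 0.23, edgeR adjusted p = 0.292).

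Pf4 was the 1 member of the 3 tested whose groups did not overlap, against 30.5% of genes tested in lymph node. The other 6 members together had few lymph node counts. Treml1 had 5, 1 and 7 counts in the DKO libraries, 13 in all, and 0, 1 and 1 in the DKO/hA-I libraries, 2 in all. DKO replicate 2 thus had the same single count as DKO/hA-I replicates 2 and 3, and its higher CPM, 0.169 against 0.0904 and 0.108, comes from its smaller library. Summed counts in DKO against DKO/hA-I were 15 against 13 for Ppbp, 4 against 2 for Gp5, 5 against 1 for Gp1bb, 1 against 2 for Gp9 and 0 against 1 for Gp6. The filter on low counts left these 6 out of the lymph node test, and at this depth their genotype differences were not resolved.

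The genotype difference of Pf4 itself differed between the tissues, with -0.04 ± 0.22 on the log2 scale in spleen, 2.38 ± 0.54 in lymph node and an interaction of -2.41 ± 0.59 (edgeR adjusted p = 0.0438). It was the 1 member called of 9, against 3.33% of genes. Without a single library the adjusted p of this interaction ran from 0.0169 to 0.113, and it stayed under 0.05 only when lymph node DKO replicate 1 or 2 was left out. For Itga2b the interaction was 1.26 ± 0.50 and for Treml1 -2.52 ± 0.88, and neither passed (edgeR adjusted p = 0.204 and 0.153).

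Macrophage markers also differed between the lymph node genotypes. Of 18 macrophage markers, all tested, 8 were higher and 2 lower in DKO nodes, where 6.87% of all genes were called in either direction, and their sum was 11037, 7464 and 13577 CPM in DKO and 5996, 4854 and 4402 CPM in DKO/hA-I nodes, without overlap. Within DKO the node libraries had the same order by this sum as by Pf4, and within DKO/hA-I they did not. In spleen the macrophage sum was 5541 to 6339 CPM in DKO and 4866 to 5705 CPM in DKO/hA-I. The lysosomal glycoprotein gene Cd68 was higher in DKO nodes (log2 fold change 2.03 ± 0.42, edgeR adjusted p = 0.0341), as was the complement gene C1qa (2.02 ± 0.30, adjusted p = 0.0147). The gene of the phosphatidylserine receptor Timd4 was lower (-1.83 ± 0.31, adjusted p = 0.0205). The Cd68 call was lost in 8 of 13 alternatives (adjusted p up to 0.135), among them those without DKO replicate 1 or 3 or any 1 DKO/hA-I library, and the calls of C1qa and Timd4 were lost in 3 each (up to 0.0733 and 0.0807). No macrophage marker was at 0 in any group.

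Fat markers also differed between the node groups. The list of 10 adipocyte and brown fat markers was drawn up after the data were seen. All 10 were lower in DKO nodes, where 6.87% of all genes were called in either direction. They summed to 7.11, 23.1 and 21.4 CPM there and to 1017, 902 and 331 CPM in DKO/hA-I nodes. At a sum of 7.11 CPM, the 10 markers cannot all have reached the filter's minimum of 10 counts in DKO replicate 1. Markers short of it passed only with the help of DKO/hA-I nodes, so for them a lower call in DKO was at least partly built in. In these nodes Itga2b had 16.9, 32.7 and 13.7 CPM in DKO and 69.1, 46.6 and 30.1 CPM in DKO/hA-I. The libraries had the same order by Itga2b as by the fat sum within DKO/hA-I, and a different order within DKO. The groups were apart in the fat sum and overlapped in Itga2b. In spleens the fat sum was 1.1 to 3.81 CPM. Neutrophil markers summed to 207 to 1443 CPM in DKO and 112 to 276 CPM in DKO/hA-I nodes (1 of 8 higher). Stem and progenitor markers summed to 152 to 228 CPM in DKO and 136 to 156 CPM in DKO/hA-I. Mast cell and basophil markers, of cells that can carry integrin alpha-IIb early in their formation, summed to 72.3 to 101 CPM in DKO and 57.1 to 101 CPM in DKO/hA-I nodes. The part of any of these cells in the levels of Pf4 and Itga2b was not tested.

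**Figure D3:**
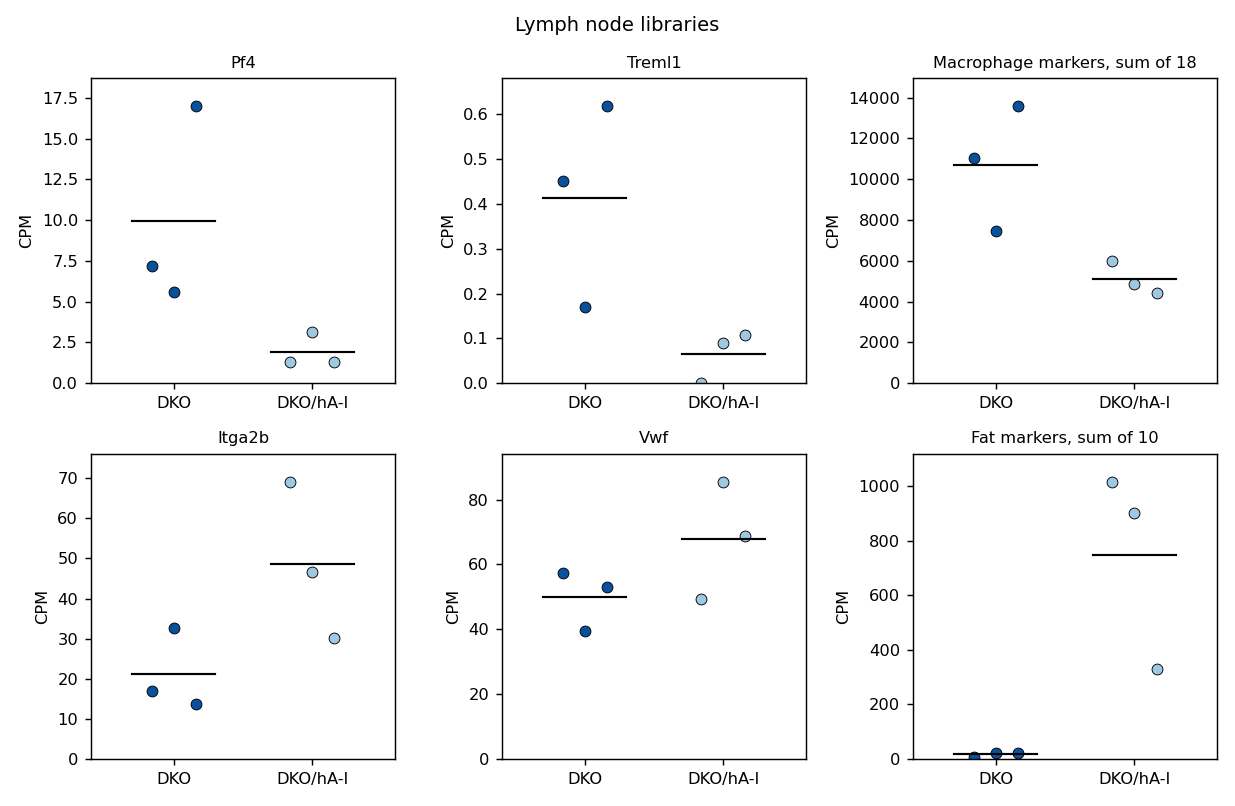
Lymph node libraries by genotype, in CPM on linear axes that start at 0. Points are libraries and lines are means of 3. Pf4 and the sum of 18 macrophage markers are higher in all 3 DKO nodes. Treml1 rests on 1 count in DKO replicate 2 and in DKO/hA-I replicates 2 and 3. Itga2b and Vwf are on average lower in DKO, with overlap, and the sum of 10 fat markers is lower in all 3.

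To contrast Pf4 with the platelet glycoprotein genes, its counts were divided in each library by the summed counts of Itga2b, Gp9, Gp1bb, Gp5 and Gp6. In spleen this ratio was nearly constant, at 0.341, 0.403 and 0.391 in DKO and 0.416, 0.36 and 0.383 in DKO/hA-I. In lymph node it was 0.421, 0.168 and 1.2 in DKO and 0.0187, 0.0676 and 0.0427 in DKO/hA-I. All 3 DKO nodes lay above all 3 DKO/hA-I nodes, and the nodes lay on both sides of the spleens. On the log2 scale the mean was -1.19 ± 1.42 in nodes of DKO mice and -4.72 ± 0.94 in those of DKO/hA-I mice (SD, n = 3 each), a difference of 3.54, against -0.03 in spleen. The lymph node difference was 2.29 against the geometric mean of the 5 genes and 1.48 without Itga2b, and the difference of spleen minus lymph node, 1.56, turned to -2.06 and -3.90. No test was made of this ratio.

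The lymph node ratio is in effect one of Pf4 to Itga2b. Itga2b made up 64.8% to 67.3% of the glycoprotein counts in spleens and 96.3% to 99.6% in lymph nodes. The other 4 glycoprotein genes had 260 to 510 counts together in a spleen and 1 to 6 in a lymph node. Set against Ppbp, the other alpha granule chemokine, Pf4 had 0.207 to 0.267 counts per Ppbp count in the 6 spleens. In the nodes it had 80, 4.12 and 32.2 in DKO and 2.8, 8.75 and 3 in DKO/hA-I, where Ppbp had 8 counts or fewer, so these node ratios are imprecise. Itga2b had 0.351 to 0.468 counts per Ppbp count in spleens and 24.2 to 188 in nodes. Relative to Ppbp, both Pf4 and Itga2b thus stood higher in all 6 nodes than in any spleen.

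**Figure D4:**
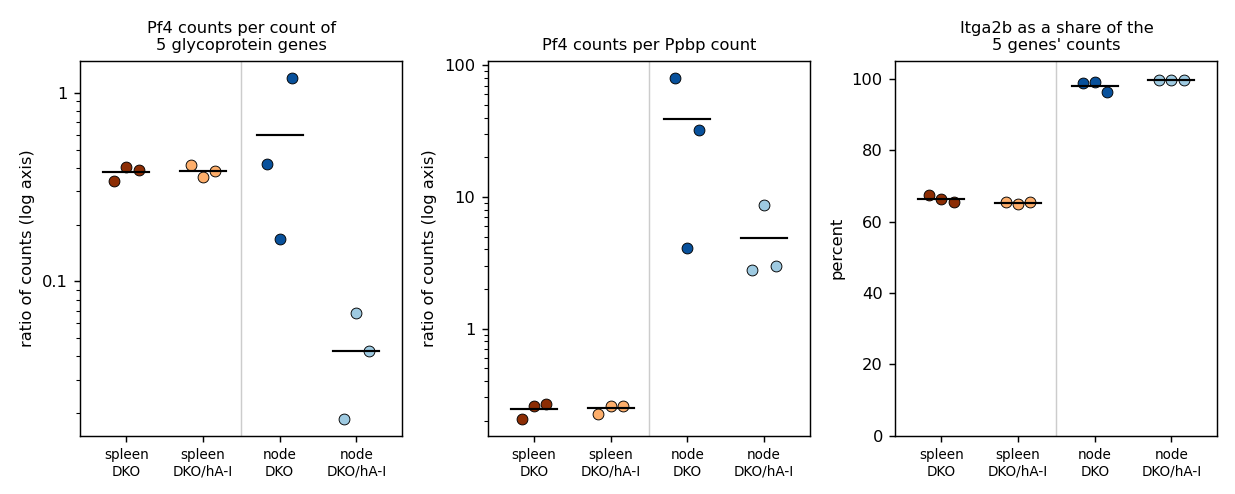
Pf4 counts per count of the 5 glycoprotein genes (left, log axis), Pf4 counts per Ppbp count (middle, log axis) and Itga2b as a percentage of the glycoprotein counts (right) in the 12 libraries; lines are means of 3. Spleen libraries cluster tightly in all 3 panels, lymph node libraries spread on the left, and Itga2b makes up nearly all glycoprotein counts in lymph nodes.

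Across the 12 libraries the gene whose log2 CPM was closest to Pf4 was Trf, which encodes the iron carrier transferrin (Pearson's r 0.986), followed by Lpin3, Lama2, Olfml3 and Slco2a1 (0.983 to 0.976). Among 14607 genes, Treml1 ranked 20 (r 0.962), Gp1bb 164 and Ppbp 484, whereas Itga2b ranked 3971 (r 0.421) and Vwf 4650 (r 0.331). Closest to Itga2b were Ush1g (r 0.95), Ppif, Pprc1, Igf2 and Mybpc1 (0.919 to 0.918), with Gp6 at rank 307 and Ppbp at 342. Pf4 and Itga2b were thus far from each other in rank. These values are descriptions over 12 libraries that fall into 2 tissues. Treml1, Gp1bb, Gp6 and Ppbp had 8 counts or fewer in each lymph node, so their log2 CPM there is imprecise and their ranks carry this limit.

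The rest of the megakaryocyte and platelet programme was read from 4 lists of 50 genes in all, of which 49 were tested between tissues. In spleen against lymph node 29 were higher and 4 lower, where 17.9% of all genes were higher. In the lymph nodes alone 44 list genes passed the filter on low counts. For those that did not, Tubb1 and Gfi1b among them, a call toward spleen was built in. Of 14 genes of platelet cytoskeleton, signalling and eicosanoid enzymes, 11 passed, all higher in spleen, with a median log2 fold change of 1.90 against -0.02 over all genes. Tubb1, the beta tubulin of the platelet marginal band, stood at 36.8 ± 11.8 CPM in DKO and 38.1 ± 7.7 CPM in DKO/hA-I spleens, and at 0.175 ± 0.0876 CPM in DKO and 0.358 ± 0.0804 CPM in DKO/hA-I nodes (SD, n = 3 each; log2 fold change 7.15 ± 0.27, edgeR adjusted p = 1.75e-09). The platelet 12-lipoxygenase gene Alox12 was higher by 4.79 ± 0.28, the myosin light chain gene Myl9 by 2.36 ± 0.16 and the cyclooxygenase gene Ptgs1 by 2.29 ± 0.11 on the log2 scale.

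Of 10 megakaryocyte transcription factors, 9 were tested, and 6 were higher and 1 lower in spleen, with a median of 2.33. The zinc finger repressor gene Gfi1b was higher by 6.42 ± 0.36, Gata1 by 5.68 ± 0.37, the proplatelet factor gene Nfe2 by 5.07 ± 0.38 and Tal1 by 4.21 ± 0.24. Gfi1b did not pass the filter on low counts in the lymph nodes, so its call toward spleen was built in. These factors also serve red cell precursors. All 12 erythroid markers tested were higher in spleen too, against 17.9% of all genes. Only 6 of them passed the filter on low counts in the lymph nodes, so for the others a call in this direction was built in. The 12 markers summed to 7041 to 38826 CPM in spleens and 82.9 to 349 CPM in lymph nodes. The part of erythroid cells in the levels of these factors was not tested.

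Of 15 surface receptors and adhesion genes, 8 were higher and 1 lower, with a median of 0.72. The thrombin receptor gene F2rl3 was higher by 3.09 ± 0.20 and the ATP-gated channel gene P2rx1 by 2.68 ± 0.31. Of 11 granule and secreted protein genes, 4 were higher and 2 lower, with a median of 0.07. Over all 14608 genes tested, 17.9% were higher and 2563 genes were lower in spleen. Differences between the lists were not tested. The vessel growth factor gene Angpt1 was higher by 1.88 ± 0.19 and the thrombospondin gene Thbs1 by 0.74 ± 0.17, while Mmrn1, whose product multimerin 1 binds factor V, was lower (log2 fold change -1.47 ± 0.23, edgeR adjusted p = 0.000293), as was Srgn, the gene of the granule proteoglycan serglycin (-0.41 ± 0.09, adjusted p = 0.00308). The other 2 lower genes were Pear1 and Fli1, named after their values were seen.

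**Figure D5:**
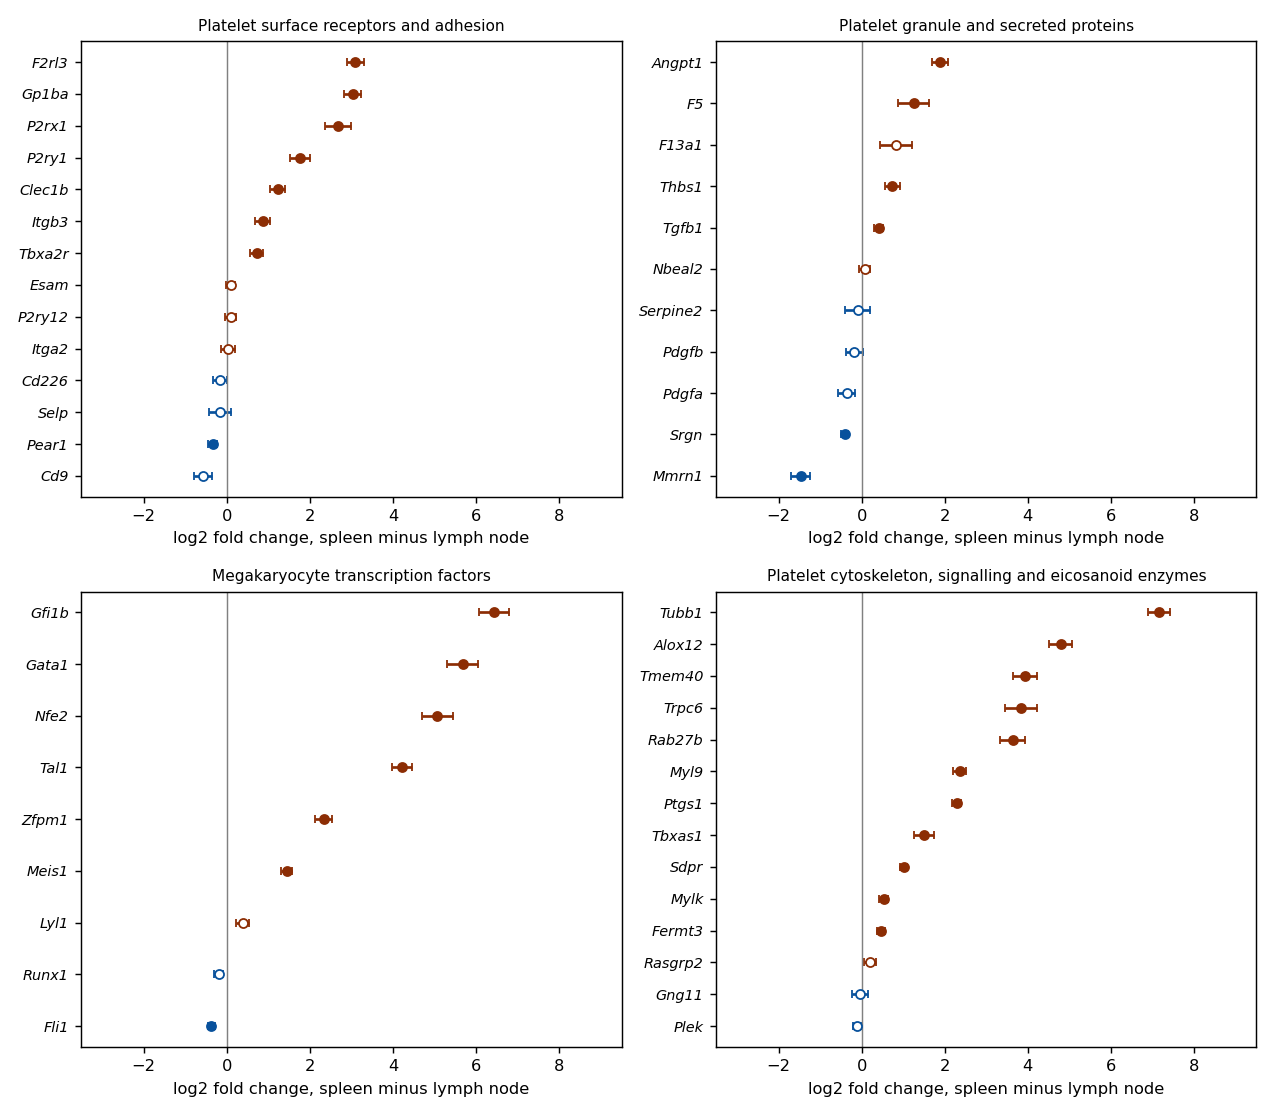
Log2 fold changes of spleen minus lymph node over both genotypes, with standard errors, for the tested genes of 4 lists, apart from 1 that is not shown. Filled symbols passed the edgeR threshold. Most cytoskeletal genes lie right of 0, and granule protein genes lie on both sides.

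Between the genotypes, edgeR called 0 of the 49 list genes in spleen, where 2 had an unadjusted p under 0.05 and DESeq2 and limma voom each called 0. In lymph node 5 of 44 were called, 4 higher and 1 lower in DKO, against 6.87% of all genes in either direction. The tetraspanin gene Cd9 stood at 291 ± 154 CPM in DKO nodes, against 76.9 ± 6.07 CPM with human apoA-I (SD, n = 3 each; log2 fold change 1.93 ± 0.39, edgeR adjusted p = 0.0334). The thromboxane synthase gene Tbxas1 was higher by 2.18 ± 0.44 on the log2 scale (adjusted p = 0.0321), Pdgfa, a growth factor gene, by 1.61 ± 0.34 (0.0341) and Thbs1 by 1.53 ± 0.17 (0.00811). The calls of Cd9, Tbxas1 and Pdgfa were each lost without DKO replicate 1 or 3 or any 1 DKO/hA-I library (adjusted p up to 0.134, 0.124 and 0.12), and those of Thbs1 and Sdpr held in all 13 alternatives. Sdpr, which encodes a coat protein of caveolae, was lower, at 23.2 ± 0.698 CPM in DKO nodes, against 56.8 ± 9.2 CPM in DKO/hA-I nodes (log2 fold change -1.28 ± 0.15, edgeR adjusted p = 0.00965). Cd9, Tbxas1 and Thbs1 are expressed by macrophages as well as platelets, and Sdpr by adipocytes and endothelium. The macrophage and fat marker sums given above moved in the same directions, and their part was not tested. The platelet receptor genes Gp1ba, at -0.11 ± 0.33 (edgeR adjusted p = 0.872), and F2rl3, at -0.04 ± 0.44 (adjusted p = 0.97), did not pass.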

How the data were processed

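Poly(A) RNA was sequenced on the Genome Analyzer IIx, per the series design. The submitters' processing notes name Trimmomatic, Bowtie, TopHat, Cuffdiff and the build GRCm38 (mm10). The sources used here name no counter, strand setting or annotation. The deposited tables, 1 per tissue, hold raw counts for each gene symbol and library, as the authors made them, and the authors' own q-values for the genotypes. Other columns were not used.

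Counts were tested with edgeR 4.0.16 (R 4.3.3): filterByExpr (minimum count 10, minimum total 15), TMM and robust quasi-likelihood tests, with Benjamini-Hochberg adjustment over all genes tested and calls at 0.05. Genotypes were compared within each tissue, and tissues and the interaction in a fit of all 12 libraries. The SE of an edgeR log2 fold change was taken as its absolute value over the square root of the quasi-likelihood F statistic, so it is approximate. Log2 CPM used a prior count of 0.5. The steps were tested on simulated counts. DESeq2 1.42.0 and limma 3.58.1 voom were alternatives. Positions and exon lengths come from GENCODE on GRCm38, and promoters from RefSeq on GRCm38.p6.

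The labels do not say outright that libraries are separate animals, though their codes differ, so p-values cover the spread between libraries. The members and lists were chosen with earlier results of these data known. Named genes are the members, up to 4 genes of each list by adjusted p between tissues, list genes called between genotypes, the 5 genes nearest to Pf4 and to Itga2b, genes overlapping a member, and up to 3 of a marker list. Counts over the lists include 1 gene that is not reported here.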

Additional observations from a re-analysis of the deposited data

Results flagged for a closer look

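For 5 genes of the platelet programme the genotype difference differed between spleen and lymph node (edgeR interaction test, adjusted p under 0.05). They were 1 of 9 members and 4 of 49 list genes, against 3.33% of the 14608 genes tested. All 5 were also called between genotypes in lymph node, and the same libraries enter the interaction. Pf4 had an interaction, spleen minus lymph node, of -2.41 ± 0.59 on the log2 scale (adjusted p = 0.0438). For Cd9 it was -1.95 ± 0.45 (adjusted p = 0.0357), for Tbxas1 -2.06 ± 0.48 (0.0364) and for Thbs1 -1.41 ± 0.34 (0.0438), all with the larger difference in lymph node. Sdpr had 0.99 ± 0.18 (adjusted p = 0.0131), from -0.31 ± 0.11 in spleen and -1.28 ± 0.15 in lymph node. The 3 macrophage markers named above were also past the threshold, Cd68 at -1.93 ± 0.47 (adjusted p = 0.0424), C1qa at -1.83 ± 0.32 (0.0109) and Timd4 at 1.82 ± 0.35 (0.0171). Most of these calls stood near the threshold. Of 18 alternatives, the call was lost in 13 for Pf4, Cd9 and Tbxas1, 11 for Thbs1, 14 for Cd68 and 3 for Timd4, with adjusted p up to 0.113, 0.106, 0.101, 0.112, 0.12 and 0.0599 in the order Pf4, Cd9, Tbxas1, Thbs1, Cd68 and Timd4. Those of Sdpr and C1qa held in all 18. In these data the lymph node difference of Pf4 thus stands beside that of macrophage markers, and which cells carry Pf4 was not tested.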

How the results depend on the processing

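No setting changed the sign of a called fold change. In spleen against lymph node over both genotypes, all 171 alternative values of the 9 members stayed on their side of the threshold. In DKO alone, 160 of 162 did, and Vwf passed in the other 2 (without spleen DKO replicate 3 or lymph node DKO/hA-I replicate 1). In lymph node the count of members called, 1 as reported, was 0 with limma voom, 2 with DESeq2 and 2 with 12 libraries in one fit, and 0 to 2 when a library was left out. For the interaction it was 0 with limma voom, 0 with no filter and 0 to 1 when a library was left out. Of 126 alternatives for the members in spleen between genotypes, all 126 gave the same verdict.

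The counts of genes called moved more. In spleen edgeR called 1 gene between genotypes, DESeq2 5, and edgeR with the animal code as a term 515, and leaving out a library gave 1 to 167 (167 without DKO replicate 1). In lymph node 962 became 1967 with DESeq2, 2253 with 12 libraries in one fit and 115 to 2245 when a library was left out. The interaction count of 487 was 973 with DESeq2, 253 with limma voom and 179 to 1160 when a library was left out. Leaving out a library gave 4475 to 6193 tissue calls over both genotypes, against 5174.

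The replicate numbers did not pair the samples, since deviations of same-numbered libraries correlated at 0.0147, 0.0976 and -0.103 in spleen and -0.138, 0.0182 and -0.0335 in lymph node. With the replicate number as a block, 438 genes and 0 members were called in lymph node and 299 genes and 0 members for the interaction. Pf4 had adjusted p = 0.0931 and 0.077 there, by edgeR.

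The Pf4 ratio depended on its denominator. The difference of DKO minus DKO/hA-I in lymph node, 3.54, was 2.29 against the geometric mean of the 5 genes and 1.48 without Itga2b, a choice made after seeing the data. Spleen minus lymph node was 1.56, and -2.06 and -3.90 under these. Leaving out a library gave 2.82 to 4.23 and 1.01 to 2.21. The cause was not tested, other than that Itga2b holds nearly all the lymph node counts. Depth limits the 6 members with few lymph node counts, and arms of 3 libraries limit every genotype call.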
